A study of Mus musculus with 6 samples.

Results

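The 35 genes described here encode the core of the cellular antioxidant defence: the stress-responsive transcription factor NRF2 (gene Nfe2l2), its inhibitor KEAP1, and enzymes and proteins that make glutathione, run the thioredoxin cycle, remove peroxides and superoxide, conjugate electrophiles or store iron. They were chosen by name from general knowledge of the pathway, but with earlier results of these data known. The entries of the deposited gene table whose symbol equals one on the list were taken, and all 35 were found among its 53278 genes. RNA was sequenced from type-2 innate lymphoid cells (ILC2s), lymphocytes that make type 2 cytokines without an antigen receptor, sorted from the visceral adipose tissue of C57BL/6 mice aged 8 weeks. All mice had received 3 intraperitoneal injections of 1 µg recombinant IL-33, and all cells were then cultured at 37°C with IL-2 (10 ng/mL) and IL-7 (10 ng/mL), so the isotype control libraries also come from activated cells. By the sample titles and the methods of the study, only the antibody differed. Cells received either 5 µg/mL of DTA-1, which activates the costimulatory receptor GITR, or an isotype antibody. Each group has 3 libraries, and each library was made from 10 ng of RNA. The column names and sample descriptions of the control libraries read PBS instead of isotype. What the control cells received is therefore not settled, and they are called isotype control here after their titles. The labels give a culture of 48 h, whereas the results text of the study gives a shorter time. Neither the sex of the mice, nor pooling of animals, nor whether the libraries came from separate cultures is given in the sources used here, so p-values measure only the spread between these libraries.

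NRF2 is a transcription factor that KEAP1 holds in the cytoplasm and hands over for degradation. Oxidants and electrophiles modify cysteines of KEAP1, NRF2 then accumulates, and it binds with a small MAF protein to antioxidant response elements near its target genes. The targets feed parallel reducing systems, glutathione and thioredoxin, which both draw on NADPH, and activated T cells, another kind of lymphocyte, are known to need both for growth. Because NRF2 is controlled mainly through protein stability, its own mRNA level is a poor readout of its activity, and its targets are usually read instead.

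Total counts were 34557215 to 35131329 in the isotype control libraries and 30569351 to 32492849 in the DTA-1 libraries, and a count of 0 allows up to 3 counts, or 0.0854 to 0.0981 CPM (counts scaled to library size), a limit that covers counting error only. Values below are normalized counts, that is CPM after scaling by edgeR's TMM factors, unless they are said to be per kilobase of exon. The library labelled DTA-1 replicate 1 stood apart from the other DTA-1 libraries: by a chi-square distance per degree of freedom between libraries, which is near 1 for counting noise, it lay 10.1 to 11.9 from the isotype control libraries but 29.1 and 30.6 from DTA-1 replicates 2 and 3, so the results that turn on it are also given without it, and the plot of fold changes shows both fits for every gene. All 16 ILC2 markers examined, among them Gata3, Il1rl1, Il7r and Il5, passed the filter on low counts, with a summed level of 14780 to 15629 in isotype control and 15825 to 20292 in DTA-1. The sum was highest in DTA-1 replicates 2 and 3 through Il5 (9695 and 8899 against 5063 to 5627 in the other libraries) and Il2ra (2741 and 2810 against 1952 to 2243), while Gata3 (1525 and 1607 against 1678 to 1716), Il1rl1 (1022 and 1022 against 1096 to 1286), Icos (98.98 and 98.41 against 155.9 to 173) and Kit (75.8 and 80.8 against 98.8 to 129) were lower there. The sums of markers of other cells were far lower: macrophage markers summed to 6.47 to 12.2 and 8.96 to 11.9 with C1qb at 0, erythroid markers to 13.2 to 14.6 and 10.3 to 14.0 with Slc4a1 at 0, neutrophil markers to at most 1.05 and 1.47 with S100a8 and S100a9 at 0, and T cell markers to 209 to 250 and 187 to 242 with Cd8a at 0. Mast cell and eosinophil markers summed to 22.1 to 26.8 in isotype control and 19.4 to 50.3 in DTA-1, fibroblast markers to 6.50 to 18.0 and 1.52 to 6.90, adipocyte markers to 33.8 to 38.7 and 30.5 to 34.2 with Lep at 0, endothelial markers to 18.4 to 24.4 and 10.6 to 18.3 with Cdh5 at 0, and mesothelial markers to 0.340 to 1.03 and 0.906 to 1.41 with Msln at 0. Some sums rest mostly on a single gene: Trbc2 for T cells (139 to 196, above the ILC2 marker Il7r at 84.4 to 108), Lipe for adipocytes (30.5 to 38.6) and Pecam1 for endothelial cells (10.4 to 24.4). In such bulk samples fewer cells of a type and less RNA per cell cannot be told apart.

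The antioxidant genes were expressed at high levels in these ILC2s and differed little between DTA-1 and isotype control. All 35 were detected in every library and all 35 passed the filter on low counts. None met the threshold of an adjusted p under 0.05 and a 1.5-fold change by edgeR's quasi-likelihood test, in the fit over 14361 genes, in which 0 genes met it (background 0%). Without DTA-1 replicate 1, none of the 35 met it either, against 0.744% of all genes by edgeR, 0.688% by DESeq2 and 0.805% by limma. The glutathione synthesis genes Gclc and Gclm and the glutathione transferase gene Gsta4 had lower means with DTA-1 and unadjusted p-values under 0.05. That was 3 of 35 genes (8.57%) in either direction, against 7.22% of all genes tested. Counting only genes lower with DTA-1, it was the same 8.57% against 3.11% of all genes.

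Over these libraries, DTA-1 replicate 1 included, the interval of the fold change was narrow for most of the genes. For 33 of 35 the 95% interval of the fold change lay within 1.5-fold in either direction, against 58.9% of all genes tested, which include many with lower counts and wider intervals. Mgst2 (log2 interval −0.73 to 0.56) and Gsta4 (−1.31 to −0.12) were the exceptions. Without DTA-1 replicate 1 the number was 32 of 35, against 52.7% of all genes. Gclm was then a further exception, with a log2 interval of −0.5852 to −0.2574 that reached just beyond 1.5-fold. The standard error of the log2 fold change ran from 0.06 for Gsr to 0.29 for Mgst2. In the plot of fold changes most intervals cross 0 and lie between the dotted lines.

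**Figure D1:**
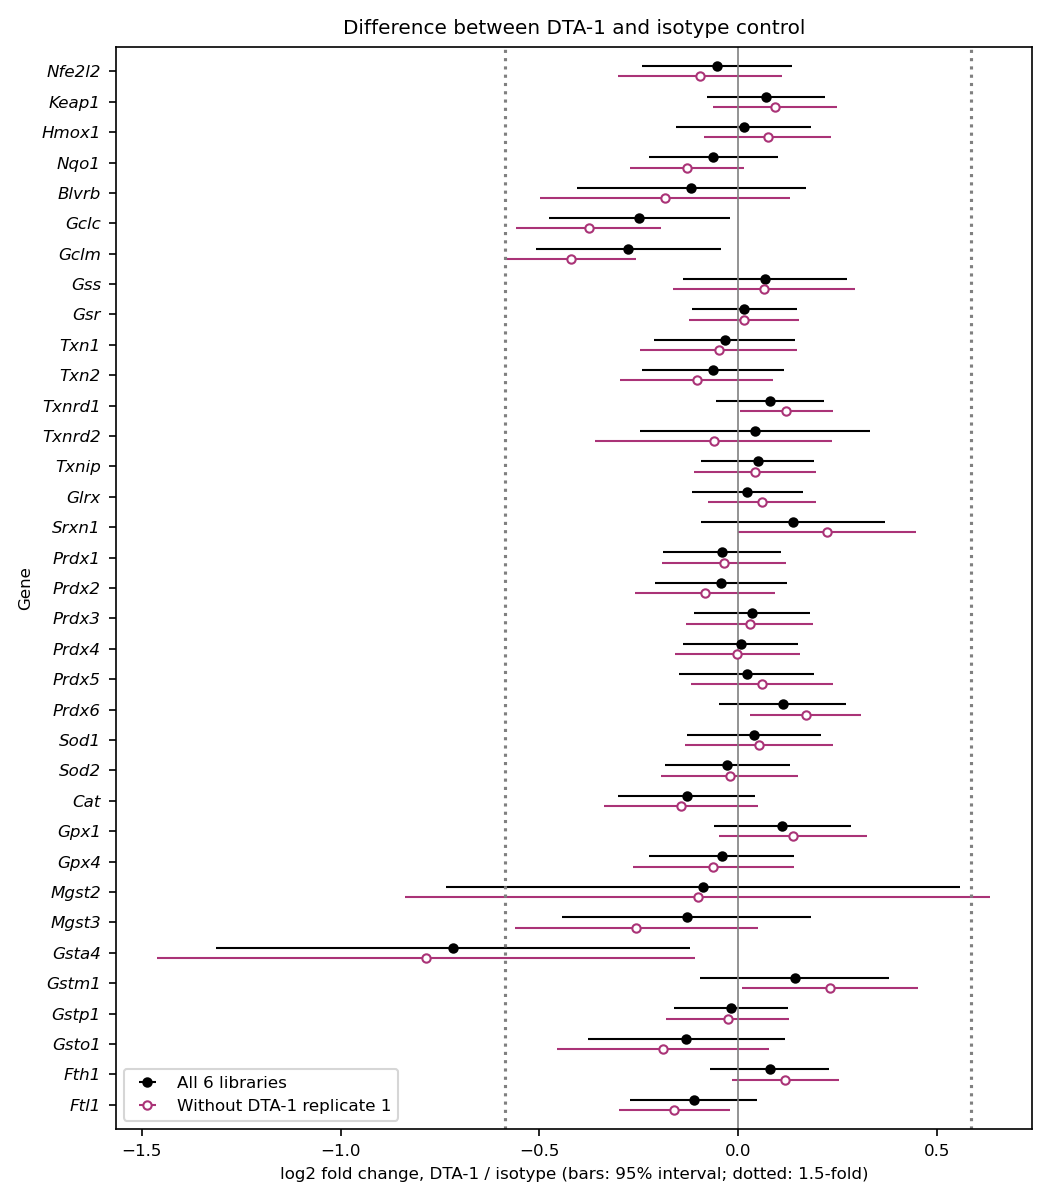
Log2 fold change of DTA-1 over isotype control (x axis) for each of the 35 genes (y axis), ordered by role, with 95% intervals from edgeR. Filled circles are the fit with all 6 libraries and open circles the fit without DTA-1 replicate 1; dotted lines mark 1.5-fold. The intervals of Gclc, Gclm and Gsta4 lie below 0 in both fits, and those of Mgst2 and Gsta4 reach beyond the dotted lines with all 6 libraries.

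Levels of the genes were compared per kilobase of exon (RPKM, from the TMM-scaled CPM and exon lengths of GENCODE mouse release M21). Their median was 57.5, against 4.72 over 14098 genes tested that had a length. Of the 35 genes 33 lay above that median, 20 were in the top 10% of genes and 3 in the top 1%. Ftl1, the ferritin light chain, had the highest level of the 35 with 4911 RPKM, rank 2 among all genes, followed by Fth1, the ferritin heavy chain, with 558 RPKM and Txn1, the cytosolic thioredoxin, with 309 RPKM. Next came the quinone reductase Nqo1 with 265 RPKM, the peroxiredoxin Prdx1 with 211 RPKM, and the glutathione peroxidases Gpx1 and Gpx4 with 200.4 and 179 RPKM. At the other end stood the glutathione transferase genes Mgst2 with 0.62 RPKM and Gsta4 with 2.29 RPKM, the only ones below the median of all genes. Of the 34 pairs of neighbours in this order 22 overlapped over the 6 libraries, among them Txn1 and Nqo1, and Gpx1 and Gpx4, whereas Ftl1 and Fth1, Fth1 and Txn1, and Gss and Gsta4 did not. Lengths joined all exons of a gene in that release, so the order depends on its gene models, and its coordinates equalled the deposited ones for 31 of the 35 genes. For Fth1 the length, 3469 bases, exceeded its deposited span (9982703 to 9985092), so its RPKM is too low. In normalized counts Ftl1 had means of 6834 and 6326 with isotype control and DTA-1, and Fth1 1883 and 1991. Together the 35 genes took 1.38% to 1.60% of all counts of a library, and the ferritin genes alone 0.793% to 0.953%.

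**Figure D2:**
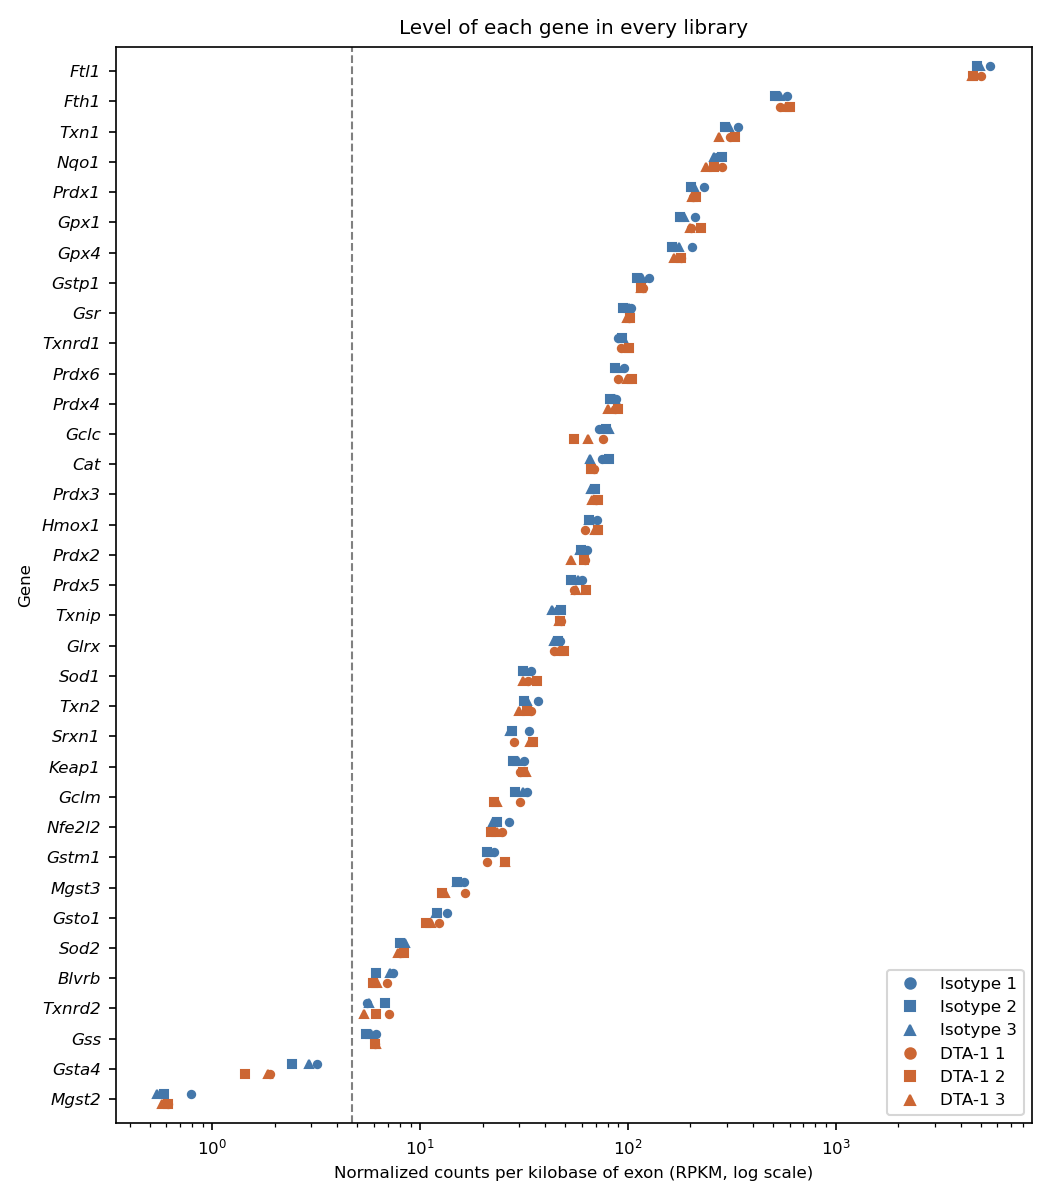
Level of each gene (y axis) in every library as normalized counts per kilobase of exon (RPKM, log x axis); blue symbols are isotype control and orange symbols DTA-1, with a shape for each replicate, and the dashed line is the median of all tested genes, 4.72 RPKM. Mean levels over the 6 libraries run from 0.62 RPKM for Mgst2 to 4911 RPKM for Ftl1, and the groups overlap for every gene except Gsta4.

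A core of the antioxidant response element is TGACNNNGC, and the promoters of the genes were searched for these letters on both strands. Other forms of the element were not searched and are not counted as matches. The windows ran from 250 bases before to 50 after each RefSeq start (assembly GRCm38.p6, 300 bases). RefSeq promoters were matched by symbol for 30 of the 35 genes (39 promoters), while Gclc, Gsr, Gsta4, Hmox1 and Prdx6 were not matched. The core was found in 6 of 39 promoters (15.4%), against 12.4% of all 32851 promoters and 14.6% of those of genes tested. A match describes the letters only, and a window without it says nothing about NRF2. Each match is printed below in 29 bases, with the core in capitals, to show which letters were matched; their share is close to that of other promoters. All are read on the minus strand of the genome, so that the core runs 5′ to 3′.
Nfe2l2, chr2:75704885-75704913: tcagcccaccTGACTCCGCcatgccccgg
Gclm, chr3:122245413-122245441: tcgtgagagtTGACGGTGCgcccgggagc
Txnrd1, chr10:82859104-82859132: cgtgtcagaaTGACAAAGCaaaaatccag
Srxn1, chr2:152105542-152105570: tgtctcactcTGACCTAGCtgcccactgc
Prdx1, chr4:116685456-116685484: ctacgggggaTGACTCAGCgctttccctg
Sod1, chr16:90220696-90220724: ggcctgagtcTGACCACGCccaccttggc
Counted from the start of transcription as 0, the leftmost base of the core on the strand of the gene lay at −240 in Nfe2l2, −134 in Gclm, −92 in Txnrd1, −133 in Prdx1 and −56 in Sod1, all upstream, and at 28 in Srxn1, downstream of the start. For Txnrd1 it was in 1 of 3 promoters.

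The region before the start of Gclm is shown whole, because Gclm had the smallest adjusted p of the 35 genes once DTA-1 replicate 1 was left out. It covers the 250 bases at chr3:122245307-122245556 of GRCm38.p6 on the plus strand, the strand of the gene, and the capitals mark the core read from its other strand.
Gclm upstream region: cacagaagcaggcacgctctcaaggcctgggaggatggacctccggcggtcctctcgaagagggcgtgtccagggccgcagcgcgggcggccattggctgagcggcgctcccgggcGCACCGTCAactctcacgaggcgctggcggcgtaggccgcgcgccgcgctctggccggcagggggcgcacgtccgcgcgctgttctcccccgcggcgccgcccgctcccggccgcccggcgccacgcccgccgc

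The libraries of the groups overlapped for both genes of the sensor pair. Nfe2l2 (chromosome 2, 75675513 to 75704641, minus strand, mm10) had 101.9, 89.0 and 85.5 normalized counts in the isotype control libraries (replicates 1, 2 and 3, the order used throughout) against 93.8, 83.2 and 89.4 in the DTA-1 libraries. Isotype control replicate 1 was the highest and the groups overlapped, with a log2 fold change of −0.05 (SE 0.09, edgeR adjusted p = 0.930). Keap1 (chromosome 9, 21229730 to 21239361, minus strand) had 147.8, 132.1 and 139.3 normalized counts with isotype control against 141.8, 147.1 and 151.1 with DTA-1. DTA-1 replicates 2 and 3 were near the highest isotype control library, and the log2 fold change of Keap1 was 0.07 (SE 0.07, edgeR adjusted p = 0.859).

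Classical stress targets of NRF2 overlapped between the groups as well. Hmox1 (chromosome 8, 75093621 to 75100589), the inducible heme oxygenase that splits heme into biliverdin, iron and carbon monoxide, had 125.0, 113.7 and 114.3 normalized counts with isotype control against 108.7, 125.6 and 122.2 with DTA-1. Its lowest and highest libraries were both DTA-1, and the log2 fold change was 0.01 (SE 0.08, edgeR adjusted p = 0.980). Nqo1 (chromosome 8, 107388225 to 107403206), which reduces quinones, had 419, 439 and 404 normalized counts with isotype control against 439, 402 and 367 with DTA-1. DTA-1 replicate 1 lay among the isotype control libraries while replicates 2 and 3 lay below them, and the log2 fold change of Nqo1 was −0.06 (SE 0.07, edgeR adjusted p = 0.893) with all libraries and −0.13 (SE 0.06, edgeR adjusted p = 0.416) without DTA-1 replicate 1. Blvrb, a reductase of biliverdin and flavins, had a log2 fold change of −0.12 (SE 0.13).

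In glutathione synthesis both subunits of its first enzyme had lower means with DTA-1. Gclc and Gclm encode the catalytic and the modifier subunit of glutamate-cysteine ligase, the rate-limiting enzyme of glutathione synthesis. Gclc (chromosome 9, 77754535 to 77794485, plus strand) had 274, 297 and 305 normalized counts with isotype control against 287, 207 and 243 with DTA-1. DTA-1 replicates 2 and 3 were below all isotype control libraries and DTA-1 replicate 1 lay within them, so the groups overlapped. The log2 fold change of Gclc was −0.25 (SE 0.10, 95% interval −0.48 to −0.02, unadjusted p = 0.035, edgeR adjusted p = 0.657). Gclm (chromosome 3, 122245557 to 122270732, plus strand), whose upstream region is printed above, had 205.9, 179.9 and 197.8 normalized counts with isotype control against 191.4, 143.4 and 147.3 with DTA-1. As for Gclc, DTA-1 replicates 2 and 3 were the lowest and replicate 1 lay within the isotype control range. The log2 fold change of Gclm was −0.28 (SE 0.11, 95% interval −0.51 to −0.04, unadjusted p = 0.0239, edgeR adjusted p = 0.655).

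Leaving out DTA-1 replicate 1 changed how these subunits read. Gclm then fell by 0.42 on the log2 scale (SE 0.07), or 0.747-fold, with an edgeR adjusted p of 0.0211 (1.8e-05 to 0.999 across all settings). It was the only one of the 35 genes with an edgeR adjusted p under 0.05 at any fold change in this fit, against 1.7% of all genes, or 0.342% counting only genes lower with DTA-1. Gclc had a log2 fold change of −0.38 (SE 0.08), or 0.771-fold, with an edgeR adjusted p of 0.0570 (0.000487 to 0.999 across all settings). Without that library Gclc passed an adjusted p of 0.05 by DESeq2 (0.000487) and by limma (0.0425), and Gclm did by both (1.8e-05 and 0.0167), so that 2 of 35 genes passed at any fold, against 2.56% of all genes by DESeq2 and 1.94% by limma. Neither reached 1.5-fold in any of these fits. DTA-1 replicate 1 was singled out for its likeness to isotype control in these same data, and leaving it out favours a difference between the groups, so these p-values are conditional on that choice. DTA-1 replicates 2 and 3 also had the highest summed mast cell and eosinophil markers, 50.3 and 35.1 against 19.4 to 26.8 in the other libraries. The sum rose mainly through Cpa3 (19.4 and 12.8 against 4.37 to 7.49) and Cma1 (14.2 and 10.9 against 3.67 to 4.85). Ccr3 was below isotype control instead (5.57 and 2.82 against 5.79 to 7.29), and Tpsb2 was mixed (8.26 and 4.96 against 3.66 to 6.04). The part of these markers in the values of Gclc and Gclm was not tested. Gm17494 overlaps Gclm on the opposite strand with 1.73% of the count of Gclm.

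The remaining glutathione genes of this step had values near 0. Gss, which adds glycine to complete glutathione, had a log2 fold change of 0.07 (SE 0.09) with all libraries and 0.07 (SE 0.10) without DTA-1 replicate 1. Gsr, which regenerates reduced glutathione with NADPH, had a log2 fold change of 0.02 (SE 0.06) and 0.01 (SE 0.06). Whether the difference between the ligase subunits and these enzymes exceeds chance was not tested.

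**Figure D3:**
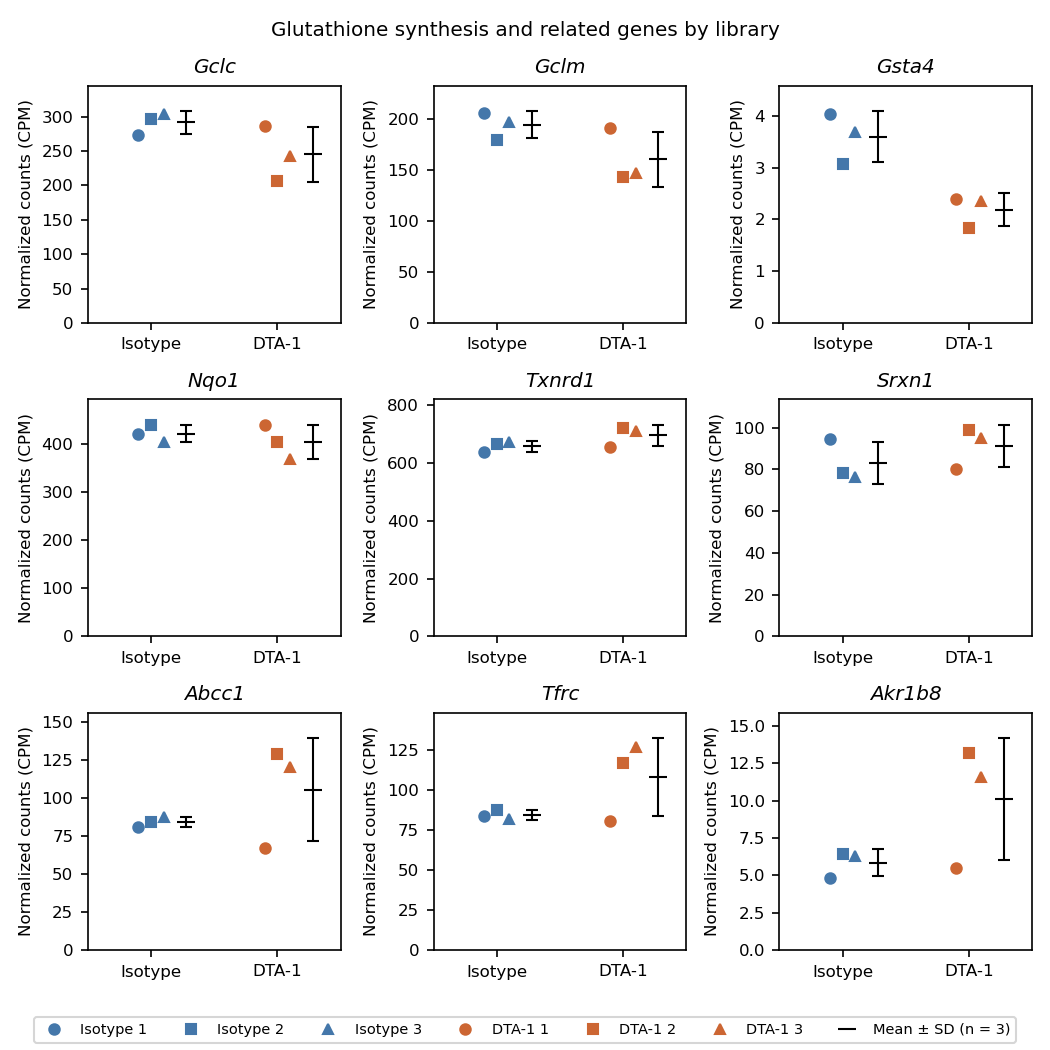
Normalized counts (CPM after TMM scaling, y axes from 0) by library for Gclc, Gclm, Gsta4, Nqo1, Txnrd1 and Srxn1 and for the related genes Abcc1, Tfrc and Akr1b8; symbols are libraries, with a shape for each replicate, and bars are the mean ± SD of 3 libraries. DTA-1 replicate 1 (circle) lies near the isotype control libraries in most panels, and Gsta4 is the only gene shown whose groups do not overlap.

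Members of the thioredoxin system had log2 fold changes of −0.06 to 0.14. Txn1 (chromosome 4, 57943373 to 57956411), the cytosolic thioredoxin that reduces protein disulfides, had 355, 309 and 322 normalized counts with isotype control against 328, 346 and 289 with DTA-1, with overlapping groups and a log2 fold change of −0.03 (SE 0.08, edgeR adjusted p = 0.952). Txnrd1 (chromosome 10, 82833951 to 82897712), the selenoprotein that reduces Txn1 with NADPH, had 636, 665 and 672 normalized counts with isotype control against 654, 722 and 711 with DTA-1. DTA-1 replicates 2 and 3 were above every isotype control library and replicate 1 was not, and the log2 fold change of Txnrd1 was 0.08 (SE 0.06, edgeR adjusted p = 0.812), or 0.12 (SE 0.05, edgeR adjusted p = 0.329) without DTA-1 replicate 1. Srxn1 (chromosome 2, 152105516 to 152111376), sulfiredoxin, which repairs overoxidized peroxiredoxins, had 94.4, 78.0 and 76.4 normalized counts with isotype control against 79.9, 98.7 and 95.2 with DTA-1. Isotype control replicate 1 lay close to DTA-1 replicates 2 and 3, and the log2 fold change of Srxn1 was 0.14 (SE 0.11, edgeR adjusted p = 0.809), or 0.22 (SE 0.10, edgeR adjusted p = 0.353) without DTA-1 replicate 1. Txnip (chromosome 3, 96557957 to 96561883), which binds thioredoxin and restrains glucose uptake, had 144.5, 148.3 and 134.1 normalized counts with isotype control against 148.8, 146.9 and 146.3 with DTA-1. The DTA-1 libraries were close together and within or just above the isotype control range, with a log2 fold change of 0.05 (SE 0.07, edgeR adjusted p = 0.904). The mitochondrial partners Txn2 and Txnrd2 had log2 fold changes of −0.06 (SE 0.08) and 0.04 (SE 0.13), and the glutaredoxin Glrx had 0.02 (SE 0.06).

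Peroxiredoxins, which reduce hydrogen peroxide at the expense of thioredoxin or glutathione, spanned log2 fold changes of −0.04 to 0.11. Prdx1 (chromosome 4, 116685544 to 116700822), a cytosolic member, had 708, 611 and 631 normalized counts with isotype control against 627, 649 and 620.0 with DTA-1. Isotype control replicate 1 was the highest library and the other libraries were close together, with a log2 fold change of −0.04 (SE 0.07, edgeR adjusted p = 0.933). Prdx6, which uses glutathione, had the largest value of the family, 0.11 (SE 0.07, edgeR adjusted p = 0.764), or 0.17 (SE 0.06, edgeR adjusted p = 0.251) without DTA-1 replicate 1. Prdx2, Prdx3, Prdx4 and Prdx5, of which Prdx3 is mitochondrial and Prdx4 resides in the endoplasmic reticulum, had −0.04, 0.03, 0.01 and 0.02, with standard errors of 0.07 to 0.08.

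Superoxide dismutases turn superoxide into hydrogen peroxide, and catalase and the glutathione peroxidases remove it. Sod2 (chromosome 17, 13007839 to 13018119), the mitochondrial dismutase, had 81.6, 80.0 and 84.8 normalized counts with isotype control against 79.8, 83.8 and 78.1 with DTA-1, with overlapping groups and a log2 fold change of −0.03 (SE 0.07, edgeR adjusted p = 0.955). Cat (chromosome 2, 103453849 to 103485160), the peroxisomal catalase, had 195, 212.8 and 172.5 normalized counts with isotype control against 180.5, 173.7 and 177 with DTA-1. Isotype control replicates 1 and 2 were above all DTA-1 libraries and replicate 3 was the lowest, and the log2 fold change of Cat was −0.13 (SE 0.08, edgeR adjusted p = 0.749). The cytosolic dismutase Sod1 had a log2 fold change of 0.04 (SE 0.08). Gpx1 (chromosome 9, 108338903 to 108340343), the cytosolic glutathione peroxidase, had 305, 258 and 270.0 normalized counts with isotype control against 289, 324 and 287 with DTA-1. Isotype control replicate 1 lay within the DTA-1 range, and the log2 fold change of Gpx1 was 0.11 (SE 0.08, edgeR adjusted p = 0.786). Gpx4 (chromosome 10, 80047166 to 80056439), which reduces lipid peroxides in membranes and guards against ferroptosis, had 352, 281 and 303 normalized counts with isotype control against 312, 309 and 289 with DTA-1. All DTA-1 libraries lay inside the isotype control range, with a log2 fold change of −0.04 (SE 0.08, edgeR adjusted p = 0.944).

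Among the glutathione transferases, which conjugate glutathione to electrophiles, Gsta4 was the lone member of all 35 whose groups did not overlap, against 11.3% of all genes tested, or 6.03% counting those lower with DTA-1; none was higher without overlap, against 5.26%. Gsta4 (chromosome 9, 78182774 to 78209349, plus strand), known for conjugating the lipid peroxidation product 4-hydroxynonenal, was scarce, with 143, 108 and 130 counts with isotype control against 74, 57 and 75 with DTA-1. In normalized counts these were 4.04, 3.08 and 3.68 against 2.39, 1.83 and 2.35, so every DTA-1 library, replicate 1 included, was below every isotype control library. The log2 fold change of Gsta4 was −0.72 (SE 0.27, 95% interval −1.31 to −0.12, unadjusted p = 0.0229, edgeR adjusted p = 0.653), and −0.78 (SE 0.30, edgeR adjusted p = 0.278) without DTA-1 replicate 1. It was the only one of the 35 with an unadjusted p under 0.05 and a 1.5-fold change, against 2.35% of all genes. Fibroblast markers, which sum to 15.6, 6.50 and 18.0 with isotype control against 1.52, 1.73 and 6.90 with DTA-1, were also lower in most DTA-1 libraries, and their part in the value of Gsta4 was not tested. The other transferase genes had log2 fold changes of −0.09 (SE 0.29) for Mgst2, −0.13 (SE 0.14) for Mgst3, −0.13 (SE 0.11) for Gsto1, −0.02 (SE 0.06) for Gstp1 and 0.14 (SE 0.11) for Gstm1, with edgeR adjusted p-values of at least 0.806.

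The ferritin chains, which store iron and so withhold it from peroxide chemistry, had means on opposite sides of 0. Fth1 (chromosome 19, 9982703 to 9985092) had 2016, 1770 and 1865 normalized counts with isotype control against 1881, 2083 and 2010 with DTA-1. Its groups overlapped, with a log2 fold change of 0.08 (SE 0.07, edgeR adjusted p = 0.834). Ftl1 (chromosome 7, 45457944 to 45459884) had 7444, 6405 and 6654 normalized counts with isotype control against 6747, 6158 and 6074 with DTA-1. DTA-1 replicates 2 and 3 were below every isotype control library and replicate 1 was not, and the log2 fold change of Ftl1 was −0.11 (SE 0.07, edgeR adjusted p = 0.764), or −0.16 (SE 0.06, edgeR adjusted p = 0.283) without DTA-1 replicate 1.

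Across the whole list no common shift between the groups was seen. Of the 35 genes 17 had a higher and 18 a lower mean with DTA-1, and 51.9% of all genes tested were lower; scaled by total counts alone, Glrx, Gsr, Hmox1, Prdx3, Prdx4 and Prdx5 moved from the higher to the lower side. The median log2 fold change was −0.02 over the 35 genes and −0.01 over all genes tested, and −0.03 against −0.02 without DTA-1 replicate 1. By role, the median was −0.12 for glutathione synthesis and reduction, −0.11 for the transferases, 0.04 for the thioredoxin system and 0.01 for the peroxiredoxins. Without DTA-1 replicate 1 the groups did not overlap for 11 of 35 genes (31.2% of all genes): Nqo1, Gclc, Gclm, Mgst3, Gsta4, Gsto1 and Ftl1 were lower and Txnrd1, Srxn1, Prdx6 and Gstm1 were higher. Unadjusted p-values under 0.05 were then found for 8 of 35, against 14% of all genes.

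Single libraries also deviated within each group. Relative to the mean of the 6 libraries, the median deviation of the 35 genes on the log2 scale was 0.08, −0.06 and −0.02 with isotype control against 0.01, 0.03 and −0.06 with DTA-1, in replicate order. Isotype control replicate 1 was above the mean for 30 of 35 genes and held the highest value for 15 of them, a place it took for 18.0% of all genes. DTA-1 replicate 2 held the highest value for 12 of them, against 18.0% of all genes. The 1410 genes in the top 10% by level had median deviations of 0.04, −0.04 and −0.01 with isotype control against −0.004, 0.04 and −0.02 with DTA-1, so isotype control replicate 1 and DTA-1 replicate 2 were also the highest libraries for abundant genes in general.

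**Figure D4:**
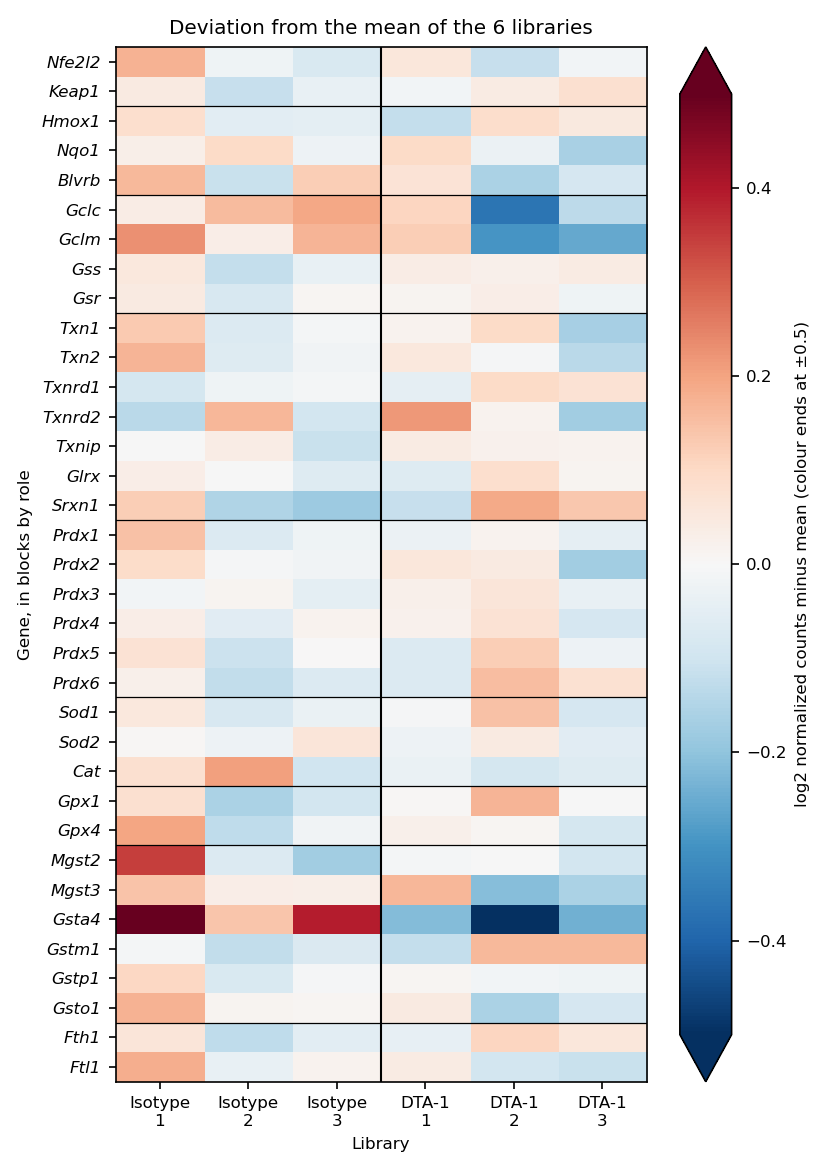
Deviation of each gene from its mean over the 6 libraries (colour, log2 normalized counts, ends at ±0.5) with libraries in columns and genes in rows in blocks by role; the vertical line separates isotype control from DTA-1. The column of isotype control replicate 1 is mostly red (30 of 35 genes above the mean), while Gclc and Gclm are blue only in DTA-1 replicates 2 and 3 and Gsta4 is blue in all DTA-1 libraries.

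Other genes of the pathway, 112 by a list made from general knowledge and 97 of them tested, were read from the same fit. This list, too, was made with earlier results of these data known. None met the threshold by edgeR with all 6 libraries, and 9 had an unadjusted p under 0.05 (9.28%, against 7.22% of all genes). The groups did not overlap for 9 of 97 with all 6 libraries (9.28%), against 11.3% of all genes tested. Of these, Maff, Pgd, Me1, Chac1 and Ugdh were higher with DTA-1, and Gpx3, Sesn2, Msrb2 and Oxr1 were lower. Maff, a small MAF partner of NRF2, had 5.12, 4.88 and 5.39 normalized counts with isotype control against 6.89, 9.26 and 8.53 with DTA-1, and its log2 fold change was 0.68 (SE 0.19, edgeR adjusted p = 0.627). Gstt1, a further glutathione transferase, had 1.72, 1.31 and 3.74 normalized counts with isotype control against 3.53, 4.58 and 4.58 with DTA-1. Its groups overlapped, with a log2 fold change of 0.90 (SE 0.37, edgeR adjusted p = 0.657). Without DTA-1 replicate 1, 2 of 99 met the threshold by edgeR, against 0.744% of all genes: Akr1b8, an aldo-keto reductase, rose with a log2 fold change of 1.09 (SE 0.20, edgeR adjusted p = 0.0279), and Aldh3a1, an aldehyde dehydrogenase, fell by 1.20 on the log2 scale (SE 0.25, edgeR adjusted p = 0.0480). With all 6 libraries their log2 fold changes were 0.79 (SE 0.29, edgeR adjusted p = 0.647) and −0.63 (SE 0.34, edgeR adjusted p = 0.736). Ugt1a7c, a glucuronosyltransferase gene of a locus with shared exons, met the threshold only by DESeq2 without that library (adjusted p = 0.00524), where edgeR gave a log2 fold change of 1.89 (SE 0.42, adjusted p = 0.0616). Maff also met it only by DESeq2 without that library (log2 fold change 0.80, adjusted p = 0.0362), where edgeR gave 0.79 (SE 0.19, adjusted p = 0.0893). By DESeq2 without that library 4 of 108 met it, against 0.688% of all genes. Below 1.5-fold, Abcc1, which exports glutathione conjugates, had a log2 fold change of 0.57 (SE 0.07, edgeR adjusted p = 0.00524) without DTA-1 replicate 1, the transferrin receptor gene Tfrc had 0.53 (SE 0.07, edgeR adjusted p = 0.00825), and Ncf4, a subunit of the phagocyte NADPH oxidase, had 0.38 (SE 0.06, edgeR adjusted p = 0.0122). Abcc1, Tfrc and Ncf4 were added after their values were seen. In each of them DTA-1 replicate 1 lay below or within the range of isotype control, so their groups overlapped with all 6 libraries.

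Some of the 35 genes share their place or sequence with others, and since the use of strand in counting is not given in the sources used here, their values are less certain. Gss overlaps Acss2 (81.1% of the count of Gss), Prdx2 overlaps Junb (212%), Prdx5 overlaps Trmt112 (59.7%), Gsto1 overlaps Cfap43 (110.0%) and Keap1 overlaps Gm16754 (2.42%), all on the opposite strand. Near copies held 49.9% of the count of Gstm1 (Gstm4), 11.4% of that of Gstp1 (Gstp3), 10.9% of that of Gsta4 (Gsta3), 6.40% of that of Gpx4 (Gpx4-ps2) and 2.37% of that of Ftl1 (Ftl1-ps1).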

How the data were processed

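RNA-seq libraries of sorted ILC2s (3 isotype control, 3 DTA-1) were sequenced by the authors on an Illumina NextSeq. The deposited values are expected counts, estimates of the reads of each gene (77.8% of the values were whole), made by the authors without normalization. The submitters' processing notes name bcl2fastq 2.17.1.14, STAR 2.5.3a, Partek and build mm10; the annotation release, the use of strand and the treatment of reads with several matches are not given in the sources used here. Total counts ranged from 30569351 to 35131329, so low genes such as Gsta4 and Mgst2 are the least precise.

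Expected counts were rounded and all 53278 genes entered edgeR 4.0.16 in R 4.3.3 (filterByExpr by group, TMM, robust quasi-likelihood test, Benjamini-Hochberg adjustment over the 14361 genes kept). A gene was called at an adjusted p under 0.05 and at least 1.5-fold. Standard errors came from the fold change and its F statistic. The alternatives were other scalings, DESeq2 1.42.0, limma 3.58.1 (prior count 2), other filters, a replicate block and each library left out; DESeq2 and limma without DTA-1 replicate 1 were added after seeing the data. On simulated counts the all-library fit recovered 83% of 200 genes changed 2-fold, with 9 false calls (14154 genes), and the fit without DTA-1 replicate 1 recovered 74%, with 6 false calls (14246 genes). The simulation gave every gene the same dispersion (0.0256) and held no library that deviated as DTA-1 replicate 1 did. These shares therefore check the steps only, and do not give the power for the real libraries or for changes below 2-fold.

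The members, the lists and the tests were chosen with earlier results of these data known. Values in every library are given for members with an unadjusted p under 0.05 and for Nfe2l2, Keap1, Hmox1, Nqo1, Gclc, Gclm, Txn1, Txnrd1, Txnip, Srxn1, Prdx1, Gpx1, Gpx4, Sod2, Cat, Fth1 and Ftl1. Other pathway genes are named at an unadjusted p under 0.05 with 1.5-fold, or where called with a library left out. Those whose groups did not overlap with all 6 libraries are also named. That rule, and Abcc1, Tfrc and Ncf4, were added after the values were seen. Coordinates are those of the deposited table. Figures used matplotlib 3.10.9 under Python 3.11.15, and tables used pandas 2.3.3. The markers of 1 cell type and 1 overlap between genes are not reported here.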

Additional observations from a re-analysis of the deposited data

How the results depend on the processing

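The count of 0 among the 35 genes held under every alternative with an adjusted p, and was 1 (Gsta4) with an unadjusted p and 1.5-fold. Over all genes the count was 0 with edgeR and 0 with limma on all 6 libraries, 25 with DESeq2, 2 without the filter, 337 with an unadjusted p and 1.5-fold, and 0 to 111 with each library left out; the 111 came without DTA-1 replicate 1, where DESeq2 gave 170 and limma 120. Of the other pathway genes 3 passed with an unadjusted p and 1.5-fold, and 0 to 2 with a library left out (2 without DTA-1 replicate 1, 4 by DESeq2 and 2 by limma). The median log2 fold change of the 35 genes ran from −0.03 to 0.04 over the libraries left out and was −0.05 with total counts.

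With total counts the log2 fold change turned to −0.0137 for Glrx, −0.0203 for Gsr, −0.0236 for Hmox1, −0.0018 for Prdx3, −0.0297 for Prdx4 and −0.0162 for Prdx5. Without DTA-1 replicate 1, Txnrd2 turned to −0.0545 with DESeq2 and −0.0581 with limma, and Prdx4 to −0.0033 with limma. With single libraries left out the range crossed 0 for Glrx (−0.0077 to 0.0600), Gpx4 (−0.111 to 0.0586), Gsr (−0.0185 to 0.0475), Gstp1 (−0.0586 to 0.0358), Hmox1 (−0.0217 to 0.0743), Mgst2 (−0.192 to 0.0932), Nfe2l2 (−0.105 to 0.029), Prdx1 (−0.0833 to 0.0295), Prdx2 (−0.0838 to 0.0283), Prdx4 (−0.0234 to 0.0495), Prdx5 (−0.0325 to 0.067), Sod1 (−0.0199 to 0.0902), Txn1 (−0.0866 to 0.0369), Txn2 (−0.108 to 0.0162) and Txnrd2 (−0.0612 to 0.141), each a gene whose 95% interval included 0; the cause was not tested. Of the member values under the other alternatives 306 kept their direction and 9 did not, and with a library left out 186 did and 24 did not.

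Replicate numbers are shared by the groups, but same-numbered libraries did not deviate together (r = −0.0069, −0.0028 and 0.015 across genes, which are not independent). These values cannot settle whether same-numbered libraries share an origin, which is not given in the sources used here. With the replicate number as a block 1 gene was called over all genes and 0 of the 35, and their median log2 fold change was −0.02. Depth limits Mgst2 and Gsta4 most.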
